A study of Castanea mollissima with 2 samples.

Results

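The transcripts described here were counted in normal chestnut catkins and were many times more abundant in short catkins. They are 81 gene entries out of 92000 deposited for Chinese chestnut (Castanea mollissima). RNA had been sequenced from the short catkins of a mutant, cultivar Heishanzhai7 (1 library), and from normal catkins of cultivar Yanshanhong (1 library). The genotype label is recessive for both libraries, and neither a tree age, a stage nor a pooling of catkins is given. The tissue label is catkins for both, whereas the extraction protocol speaks of berries. Catkin type and cultivar differed together, so their parts in any difference below cannot be told apart.

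The members were chosen by their expected counts, the numbers of reads estimated for each entry. An entry had to reach 300 counts in mutant catkins and to have a count above 0 in normal catkins. Its ratio of mutant to normal count, with 0.5 added to each count, had to lie from 8 to under 64. Of the 9625 entries that met both count conditions, 81 (0.842%) fell in this range of ratios. The height of the ratios and of the mutant counts is therefore fixed by the choice, and both are given as a description with no test. With 1 library in each group there is no replicate error, and the intervals of counts and ratios cover counting error only. Intervals of shares of entries treat the entries as independent draws, although the rule chose them.

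A chestnut catkin is a spike of small clustered flowers, most of them male, and catkins produce pollen in great excess. Work on short-catkin forms is of interest to growers because male flowers draw on the reserves of the tree. The length of a flowering spike generally depends on how long its axis keeps dividing and elongating and on when its tissues age. The deposited tables pair the entries with no gene names or sequences, so no member can be assigned to any of these processes. For the same reason the tissue label was not checked against marker genes, and no sequence is shown. Members are called below by their abundance or length, with only 2 identifiers printed.

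The members took up a small part of either transcriptome. They held 0.807% of all counts in the mutant library (Wilson 95% interval 0.803 to 0.811%) and 0.0513% in the normal library (0.0504 to 0.0522%). In TPM, an abundance measure that corrects for length, they summed to 7245 in mutant catkins and 396 in normal catkins. The library totals were 19624934 counts in the mutant and 23089247 in the normal library, so the members were higher in the shallower library. That library nevertheless had more entries with a count above 0, at 79546 against 63036 in the normal library. Scaling by the library total raises every ratio 1.18-fold (0.23 on the log2 scale). TMM scaling, a trimmed mean over entries, changes them 1.01-fold.

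The median member had 539 counts and 38.4 TPM in mutant catkins, against 34 counts and 1.68 TPM in normal catkins. Its median log2 count ratio was 4.27, against 0.04 over all 9625 entries that met the count conditions. In mutant catkins the members ran from 9.80 to 996 TPM, a 102-fold span. In normal catkins they ran from 0.15 to 75.2 TPM, a 501-fold span, and 26 of them were under 1 TPM. The members thus included both moderately abundant and barely detected transcripts of the normal catkin.

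**Figure D1:**
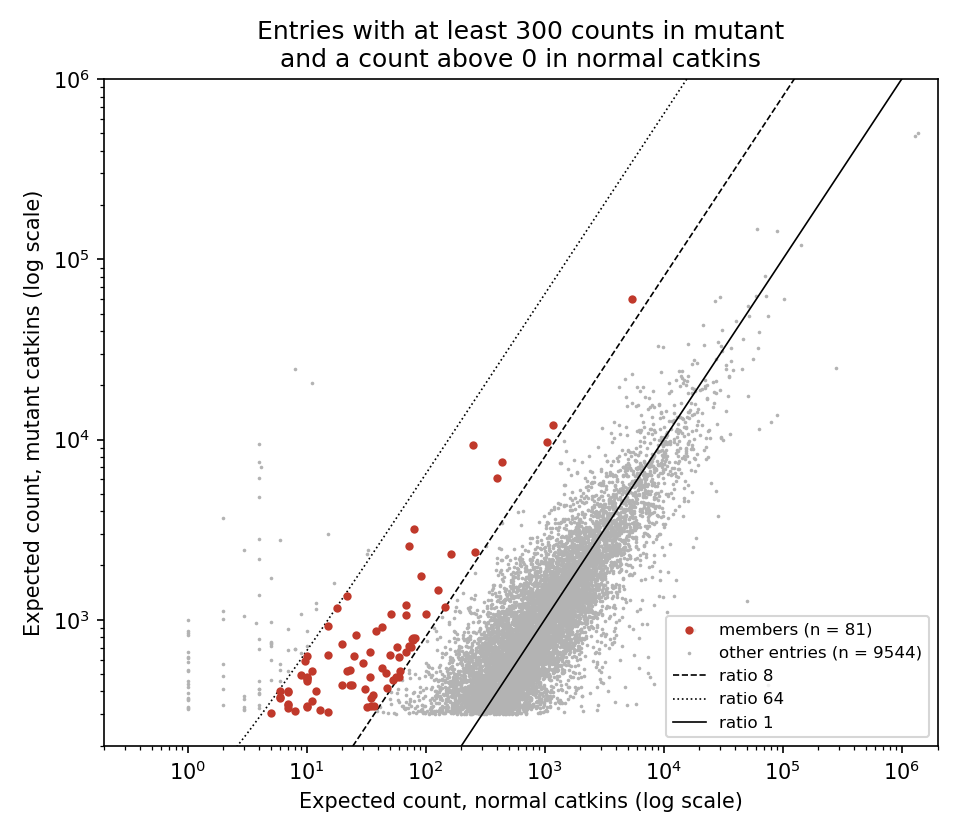
Expected counts in mutant catkins (vertical, log scale) against normal catkins (horizontal, log scale), 1 library each, for entries with at least 300 mutant counts and a normal count above 0. The 81 members in red lie between the lines of ratio 8 and ratio 64. Of the 9544 other entries in grey, 7571 had ratios of 0.5 to under 2, and others adjoin the members at both bounds.

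Ranks by TPM describe where the members stood in each transcriptome, and the direction of their difference largely follows from the rule. In the mutant library 1 member was among the 100 most abundant entries and 10 were among the 1000 most abundant. In the normal library none was among the 1000 most abundant, and 7 were among the 10000 most abundant, against 73 in the mutant library. The median rank was 4698 in mutant catkins and 21649 in normal catkins.

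The most abundant member was c49848.graph_c0, a long entry of 4253 bases in the mutant library and 4243 bases in the normal library. It had 59899.5 counts (996 TPM) in mutant catkins and 5407 counts (75.2 TPM) in normal catkins. Its ratio was 11.1, with a counting interval of 10.8 to 11.4. It ranked 68 among mutant and 2195 among normal transcripts, and was the most abundant member in both. This single entry made up 37.8% of the members' counts in mutant catkins and 45.7% in normal catkins. Over the summed counts of all members the ratio of mutant to normal was 13.4, and without this entry it was 15.3.

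The next member, of 870 bases and 1 transcript, was raised more steeply. It had 818 TPM in mutant catkins and 18.1 TPM in normal catkins, from 9267 counts in mutant and 248 in normal catkins. Its ratio was 37.3 (32.9 to 42.6), and it ranked 105 in the mutant and 7849 in the normal library. Among the members this entry combined a high level with a high ratio, as the 546-base member described next did.

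The 5 members that follow had 321 to 411 TPM in mutant catkins. The entry of 1727 bases had 411 TPM in mutant and 36.4 TPM in normal catkins, with a ratio of 9.39 (8.811 to 10.025). The entry of 1391 bases and 4 transcripts had 396 TPM in mutant and 18.6 TPM in normal catkins, with a ratio of 17.2 (15.6 to 19.0). The entry of 2237 bases had 387 TPM in mutant and 31.3 TPM in normal catkins, with a ratio of 10.3 (9.69 to 10.9). These 3 were all well counted in normal catkins, at 434 counts or more. The entry of 546 bases had 383 TPM in mutant and 8.91 TPM in normal catkins, with a ratio of 35.2 (28.1 to 45.5). The entry of 1405 bases and 10 transcripts had 321 TPM in mutant and 29.1 TPM in normal catkins, with a ratio of 15.3 (13.8 to 16.9), and is taken up again below for its length. The 7 members above 300 TPM thus had count ratios between 9.39 and 37.3.

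A further 6 members had 100 to under 300 TPM in mutant catkins, and 5 of these were under 1000 bases long. The entry of 336 bases had 238 TPM in mutant and 8.53 TPM in normal catkins. The entry of 903 bases had 202 TPM in mutant and 18.3 TPM in normal catkins. The entry of 252 bases, the shortest of all members, had 179 TPM in mutant and 7.99 TPM in normal catkins. Those of 313 and 518 bases were lower, at 126 and 106 TPM in mutant catkins, against 7.64 and 9.08 TPM in normal catkins. The long one, of 2281 bases, had 101 TPM in mutant and 2.10 TPM in normal catkins, with a ratio of 39.7 (32.02 to 50.55). The remaining 68 members were below 100 TPM in mutant catkins, 55 of them at 20 TPM or more and 13 under 20 TPM. The 10 most abundant members held 59.8% of the members' summed TPM in mutant catkins and 63.7% in normal catkins.

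**Figure D2:**
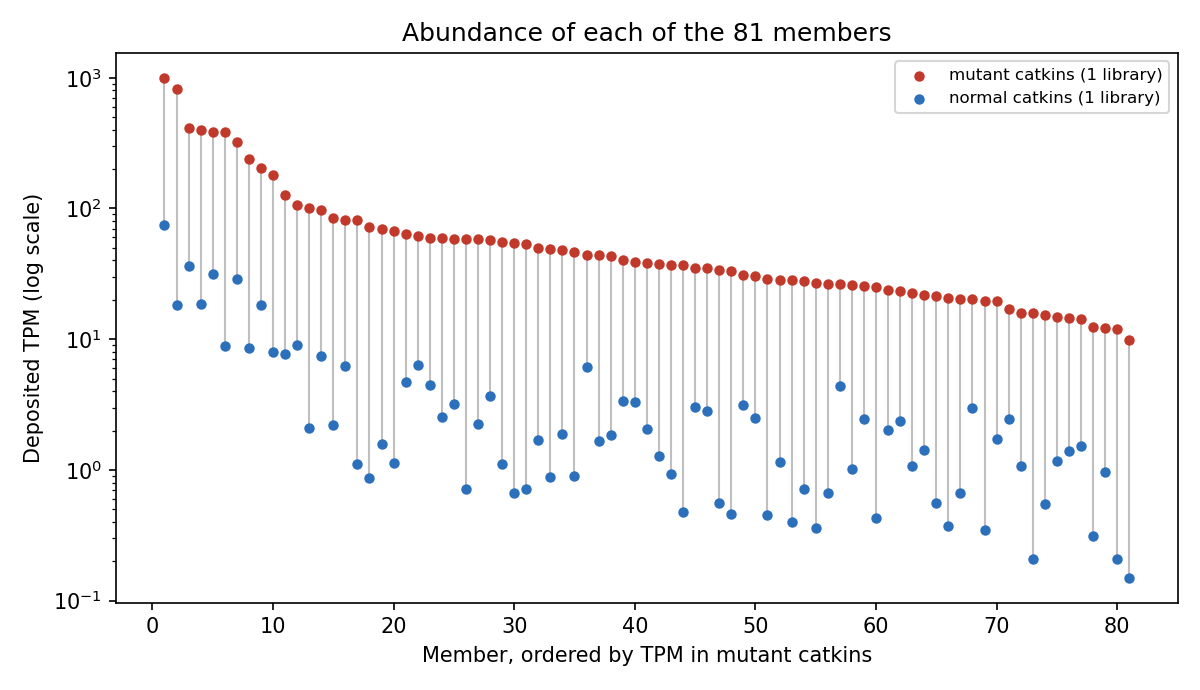
Deposited TPM (log scale) of each of the 81 members in mutant catkins (red) and normal catkins (blue), 1 library each, ordered by the mutant value, with a grey line joining the values of 1 member. The mutant values fall from 996 to 9.80 TPM, and the normal values range from 75.2 to 0.15 TPM without following the same order.

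The ratios filled the whole range that the rule allowed. There were 34 members with a ratio of 8 to under 16, 20 with 16 to under 32 and 27 with 32 to under 64. The median level in mutant catkins was much alike in these groups, at 37.0, 40.9 and 36.7 TPM. Their median level in normal catkins was 3.25, 1.67 and 0.66 TPM. The groups are cut by the ratio itself, so the order of the normal levels follows from the split. Of the 13 members with at least 100 TPM in mutant catkins, 7 were in the lowest group of ratios and 3 in each of the others.

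The highest ratio belonged to c52919.graph_c0, an entry of 1471 bases in the mutant library. It had 1165 counts (58.2 TPM) in mutant catkins and 18 counts (0.72 TPM) in normal catkins. Its ratio of 63.0 had a counting interval of 40.8 to 109.6, which crosses the upper bound of the rule. The next entries, of 595 and 1279 bases, had 401 and 632 counts in mutant catkins and 6 and 10 counts in normal catkins. Their ratios were 61.7 (30.4 to 183.2) and 60.2 (34.1 to 132.4). At this end the normal counts are so few that the order of the members is not resolved.

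The lowest ratios were better determined. The lowest was 8.03, in an entry of 1415 bases with 1176 counts (61.3 TPM) in mutant catkins and 146 counts (6.35 TPM) in normal catkins. The next were 8.07 and 8.47, in entries of 844 and 1394 bases with 483 and 478 counts in mutant catkins and 59.5 and 56 counts in normal catkins. Of all members, 38 had an interval that lay wholly inside 8 to 64, 17 had one that reached under 8 and 26 had one that reached 64 or more. Every one of the 81 had a lower limit above 2, and the lowest of these limits was 6.24. The minimum count and minimum ratio of the rule fix this in advance, so it adds no support for the rise. Counts in normal catkins were under 10 for 12 members, 10 to under 20 for 15, 20 to under 100 for 43 and 100 or more for 11.

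Entries just outside the bounds had ratios close to those just inside, which follows from picking them by their ratio. The 3 nearest entries below had ratios of 7.95, 7.94 and 7.89, with 2580, 329 and 311 counts in mutant catkins and 324, 41 and 39 in normal catkins. The 3 nearest above had ratios of 68.2, 68.5 and 69.5, with 716, 650 and 521 counts in mutant catkins and 10, 9 and 7 in normal catkins. Beyond the upper bound lay 81 entries with a ratio of 64 or more, and 51 entries with 300 or more mutant counts were at 0 in normal catkins. Of the entries with a ratio in the range of the rule, the one nearest to the count minimum from below had 297 counts in mutant and 6 in normal catkins.

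**Figure D3:**
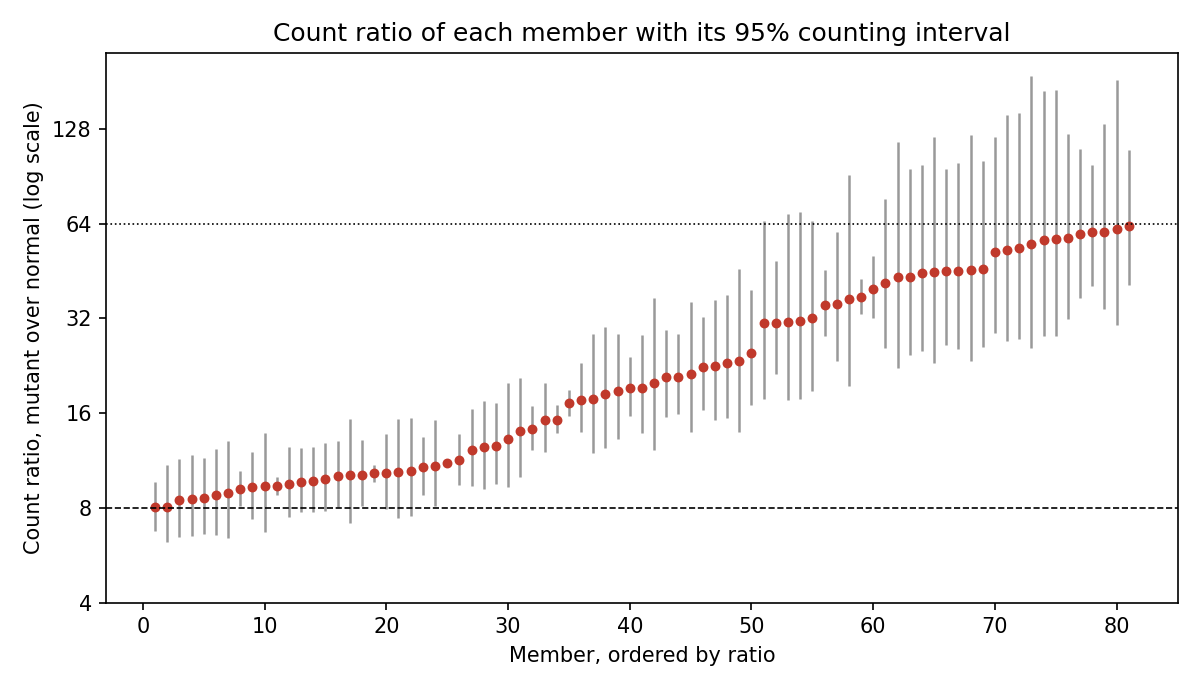
Count ratio of mutant over normal catkins (log scale) for the 81 members in order of ratio, with exact 95% counting intervals as grey bars; the dashed and dotted lines are the bounds of the rule, 8 and 64. Intervals widen towards the high ratios, where the normal counts are few, and 26 of them reach 64 or more.

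The same range of ratios in the opposite direction held more entries. Of the 9671 entries with at least 300 normal counts and more than 0 in the mutant library, 151 (1.56%) were 8-fold to under 64-fold lower in mutant catkins. Their ratios crowded towards the lower bound, with 93 at 8 to under 16 and 17 at 32 to under 64, against 34 and 27 among the raised members. These numbers follow the unscaled counts, and scaling by the library total gave 91 raised and 121 lowered entries. They also follow the upper bound of the ratio, without which unscaled counts gave 162 raised and 191 lowered entries.

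The raised members were shorter than other entries of the same minimum count, a property that the rule did not use. Their median length in the mutant library was 1306 bases, with quartiles of 870 and 1888 bases, against 1769 bases (1272 to 2404) for the 9544 other entries that met the count conditions. Entries under 500 bases made up 8.64% of the members (7 of 81) and 1.12% of the others. Entries of 2000 bases or more made up 21.0% of the members (17 of 81) and 39.5% of the others. A count minimum favours long entries, so the lengths were also compared within count classes. At 300 to under 1000 mutant counts the median was 1222 bases for 62 members and 1651 bases for 5373 others. At 1000 to under 10000 counts it was 1415 bases for 17 members and 1978 bases for 3973 others.

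Length did not change evenly with the ratio. Entries raised by 2-fold to under 8-fold had a median of 2013 bases (1177 entries), longer than the 1785 bases of the 7571 entries with ratios of 0.5 to under 2. Above a ratio of 8 the median was lower, at 1306 bases for the members, 1050 bases for the 81 entries with ratios of 64 or more, and 724 bases for the 51 entries at 0 in normal catkins. The 715 entries with ratios under 0.5 had a median of 1376 bases. Short length was thus found at both ends of the scale of ratios. The 151 strongly lowered entries, with a median of 1223 bases in the normal library, were also shorter than the 1695 bases of all entries eligible in that direction.

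**Figure D4:**
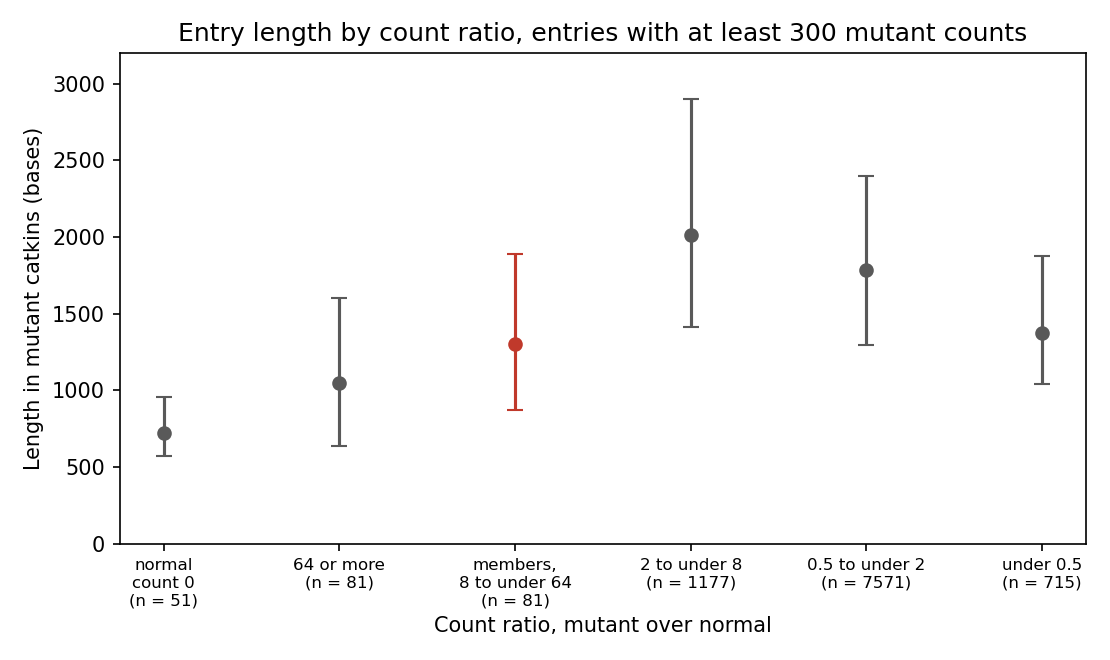
Median length in the mutant library (points, in bases) with lower and upper quartiles (bars) for entries with at least 300 mutant counts, grouped by the count ratio of mutant over normal catkins. The members (red, median 1306 bases) lie between the entries of ratio 64 or more (1050 bases) and those of ratio 2 to under 8 (2013 bases).

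Members built from several assembled transcripts were about as frequent as among other entries. Of the 81 members, 36 had 2 or more transcripts, which is 44.4% (Wilson 95% interval 34.1 to 55.3%), against 38.9% of the 9544 others. The largest number in a member was 17. Members of 1 transcript had a median of 46.3 TPM in mutant and 1.88 TPM in normal catkins, and those of several had 32.2 TPM in mutant and 1.34 TPM in normal catkins. The opposite set was poorer in such entries, with 30 of 151 (19.9%, interval 14.3 to 26.9%), against 35.7% of all entries eligible in that direction.

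Some members also differed between the libraries in their deposited length. The deposited length of an entry is weighted over its transcripts, so a difference in length can reflect a difference in their estimated proportions. Of the 36 members with several transcripts, 6 (16.7%) were longer in mutant catkins by 1.4-fold or more, and 0 were shorter by that much. Over all 3744 entries of several transcripts that met the count conditions, 65 (1.74%) differed by that much in either direction. Among the others alone, 39 were longer and 20 shorter. At ratios of 64 or more, 0 were longer and 2 shorter among 33 (6.06%), and the median normal count of all 81 entries in that range was 4. Of the entries at 0 in normal catkins, 2 were longer and 0 shorter among 9 (22.2%), with no normal count behind the length. These few entries show no direction. At ratios of 2 to under 8, 16 were longer and 3 shorter among 595 (3.19%), and in the set lowered in mutant catkins 2 of 30 (6.67%) differed, both shorter there. The lengths in normal catkins rest on few reads. Among entries of fewer than 100 normal counts, 5 of 31 members (16.1%) and 5 of 79 others (6.33%) differed by 1.4-fold or more, with median normal counts of 23 and 51. The part of low counts in this difference was not tested further. A strong rise of 1 transcript of an entry moves the length of that entry, so this share is not independent of the rise itself.

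The best counted of these 6 was the member of 321 TPM named above, with 10 transcripts. Its length was 1405 bases in mutant catkins and 876 bases in normal catkins, from 6123 counts in mutant and 401 in normal catkins. The largest difference was 1.81-fold, in an entry of 4 transcripts with 1940 bases in mutant and 1071 bases in normal catkins, from 703 counts in mutant and 75 in normal catkins. Another entry, of 5 transcripts, had 2435 bases in mutant and 1364 bases in normal catkins, a 1.79-fold difference, from 482 counts in mutant and 34 in normal catkins. In the remaining 3 the length in mutant catkins was 1.46-fold to 1.55-fold that in normal catkins, with 25 to 53.4 counts in normal catkins. Because TPM divides by length, these 6 rose less in TPM than in counts. The entry with the 1.81-fold difference had a count ratio of 9.32 (7.38 to 12.1) and a TPM ratio of 6.01. In all, 4 of the 81 members had a TPM ratio under 8 and 12 had one of 64 or more, and the median TPM ratio was 24.8.

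**Figure D5:**
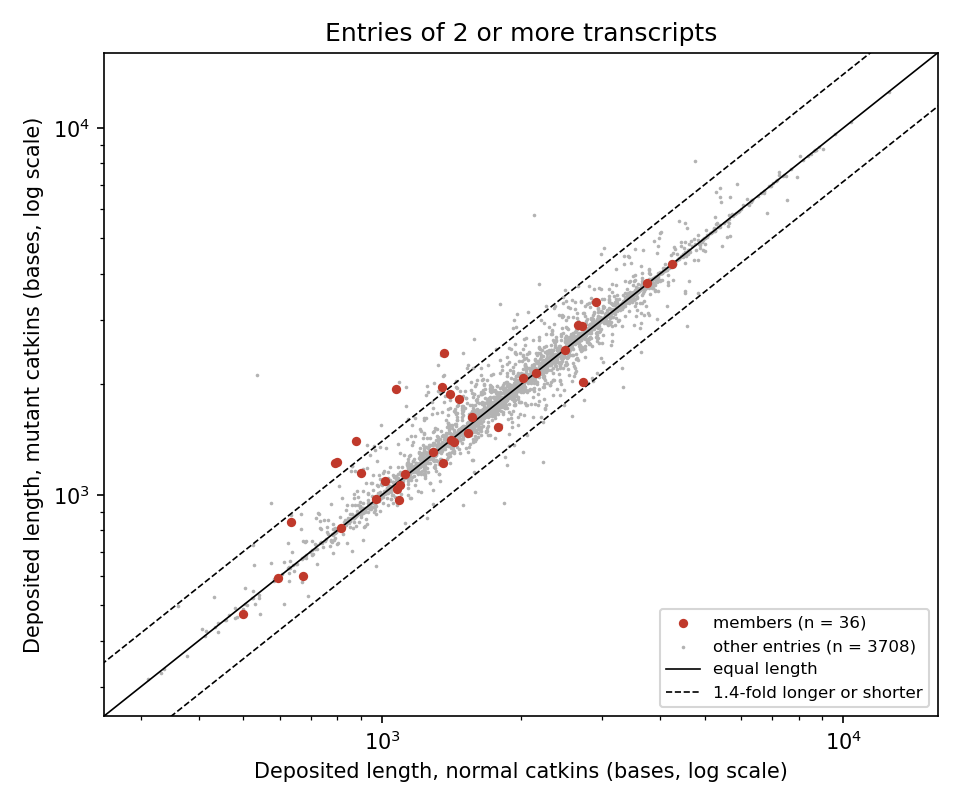
Deposited length in mutant catkins (vertical, bases, log scale) against normal catkins (horizontal, bases, log scale) for entries of 2 or more transcripts, with 36 members in red and 3708 other entries in grey. The dashed lines mark a 1.4-fold difference; 6 members lie above the upper line and 0 below the lower one.

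The members came from 81 different assembly components, the first part of the identifiers, so that none shared a component with another. For 7 of them the component held further entries, 13 in all, of which 11 had at least 20 counts over both libraries. The counts of these partner entries were not used by the rule, although reads can be shared within a component. Of the 11 partners, 7 were at least 2-fold higher in mutant catkins and 1 was at least 2-fold lower. Over all 25994 entries of that minimum count, 22.4% reached this rise. Among 1441 partners of other entries that met the count conditions, 13.9% did. The median log2 ratio was 1.64 for the members' partners and -0.05 for those of other entries. The 20-count minimum runs over both libraries, so a partner high in mutant catkins can pass it through that library alone. The 4 partners raised 8-fold or more had 115, 97, 54 and 20 mutant counts and 4, 4, 0 and 0 normal counts. The 11 partners came from 7 components, and 1 component held several of them, so they were not independent. No test was made on them.

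Single components differed in how their entries moved. The partner of the 870-base member had 461 counts in mutant and 145 in normal catkins, a ratio of 3.17 (2.63 to 3.86), far below the 37.3 of the member itself. A partner of 509 bases had 115 counts in mutant and 4 in normal catkins, and one of 856 bases had 97 in mutant and 4 in normal catkins. These are ratios of 25.7 (10.9 to 107.3) and 21.7 (9.17 to 90.8), beside members with ratios of 60.2 and 24.8. A partner of 604 bases and one of 337 bases had 54 and 20 counts in mutant catkins and 0 in normal catkins. They were at least 18.0-fold and 6.67-fold higher where a count of 0 is taken as up to 3 counts in the library, and the exact lower limits, which include the error of the mutant count, were 14.1 and 4.94. In 1 component of 7 entries, the member had a ratio of 8.07, whereas its best counted partner had 5174 counts in mutant and 4161 in normal catkins, a ratio of 1.24 (1.19 to 1.30). Another of its partners was lower in mutant catkins, with 23.8 counts there and 119 in normal catkins, a ratio of 0.20 (0.12 to 0.31).

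Part of the members' counts were estimates. A fraction in a deposited count comes from reads that the estimation divided between entries, or from rounding. In the mutant library 42 members (51.9%) had a fractional count, against 64.6% of the other entries and 51.9% of those with ratios of 64 or more. Fractions were more frequent at higher counts. At 300 to under 1000 mutant counts, 43.5% of 62 members and 50.5% of 5373 others had one, and at 1000 to under 10000 counts 76.5% of 17 members and 81.9% of 3973 others. In the normal library 10 members (12.3%) had one, against 56.6% of the others, at far lower counts. Both counts were whole, to the 2 decimals deposited, for 36 members.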

How the data were processed

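Catkin RNA was measured in 1 mutant and 1 normal library. Per the submitters' processing notes, HISAT and RSEM were used, with versions, roles and reference not given in the sources used here. The authors deposited, per the file headers, expected counts (estimated reads, not normalized), TPM, FPKM, length and effective length in bases, and transcript identifiers.

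The tables were joined on the identifier. The ratio was (mutant + 0.5)/(normal + 0.5) on unscaled counts, and its 95% exact conditional (Clopper-Pearson) interval used rounded counts. Such intervals and the Wilson intervals of shares of counts treat reads as independent. The Wilson intervals of shares of entries treat entries as independent. No test and no p-value is given, since each group held 1 library. TMM factors came from edgeR 4.0.16 in R 4.3.3, over entries with at least 20 counts, and were 1.08 for the mutant and 0.924 for the normal library. Other values were computed with Python 3.11.15, pandas 2.3.3 and SciPy 1.17.1. The rule and intervals were tried on simulated counts that varied by counting error only. Read sharing and variation between trees were thus not covered. Alternatives varied scaling, unit, pseudocount, minimum counts and bounds. The members and classes were chosen with earlier results of these data known. Identifiers were limited to the members with the highest mutant TPM and the highest ratio; others were described by the 10 highest TPM, the highest and lowest ratios, the bounds, the length differences and the shared components. Members ranked 11 to 13 by TPM, and the single partners described, were added after their values were seen. Gene lists could not be used without gene names.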

Additional observations from a re-analysis of the deposited data

How the results depend on the processing

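The number of members, 81, followed the bounds of the rule. It was 219 with a minimum of 100 mutant counts, 19 with 1000 and 922 with none, 221 with ratios from 4, 47 with ratios from 16, 162 without an upper bound, and 38 where the whole interval had to lie inside the bounds. It was 54 with at least 20 normal counts, and lay between 81 and 110 under the 5 alternatives of scaling, unit and pseudocount, but which entries were members changed: all 81 were kept by TMM scaling, 72 by total-count scaling, 67 by FPKM and 67 by TPM. By summed TPM the members held 0.724% of the mutant and 0.0396% of the normal library. Their median length was 1012 bases with a minimum of 100 counts and 1471 bases with 1000. The number that differed at least 1.4-fold in length was 10 and 1 under these minimums, and 11 at a threshold of 1.2-fold. The number with a fractional count in either library, 45, was 83 and 15 under these minimums, and 87 without an upper bound. The lowered set numbered 273 with a minimum of 100 counts. The share with several transcripts was 41.6 to 42.6% under the 3 alternatives run for it, against 44.4%. The partners' median log2 ratio was above 0 under the 5 alternatives run for it, at 0.75 without an upper bound of the ratio, against 1.64. The members' median log2 ratio, whose direction the rule fixes, was 4.10 to 4.62. No paired analysis was possible because only 1 library stood in each group, and for the same reason none could be left out. Depth limits the ratios of the 27 members with under 20 normal counts.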
